A study of Mus musculus with 2 samples.

Results

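The inhibitors of cyclin-dependent kinases and the retinoblastoma family were compared between mouse embryonic fibroblasts (MEFs, primary cultures of embryonic connective tissue) from wildtype mice and from mice without Malat1, a long noncoding RNA of the nucleus. The genes were chosen by name: the INK4 inhibitors Cdkn2a, Cdkn2b, Cdkn2c and Cdkn2d, the CIP/KIP inhibitors Cdkn1a and Cdkn1b, the pocket proteins Rb1, Rbl1 and Rbl2, and Trp53. Of these 10 genes, 9 matched a probe set with a single gene symbol in the annotation of the Affymetrix Mouse430_2 array, and Trp53 was not analysed here. They have 16 probe sets, of 34958 with 1 symbol for 18194 genes, and each probe set is given apart. The wildtype group is 1 array of untreated MEFs (genotype Wildtype, strain C57BL/6, prepared at embryonic day 13.5 and kept in culture for 2 weeks), and the knockout group is 1 array of untreated MEFs of the genotype Malat1 Knock-out, of the same strain, age and time in culture. The sources used here do not say how the allele was made or how many embryos gave each RNA. With 1 array per genotype there is no spread between replicates, so no p-value is given, and a difference between the arrays has no replicate check.

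Cells commit to division in G1 phase. Cyclin D with CDK4 or CDK6, and then cyclin E with CDK2, phosphorylate the pocket proteins, which in their unphosphorylated form bind E2F transcription factors and hold S phase genes silent. INK4 proteins bind CDK4 and CDK6 and keep cyclin D away, while CIP/KIP proteins bind cyclin and kinase together. The Cdkn2a locus encodes an INK4 protein, p16INK4a, from one first exon, and from another first exon the unrelated protein p19Arf, which frees p53 by binding its ubiquitin ligase Mdm2. In MEFs the products of Cdkn2a build up with passage and belong to the arrest that ends the growth of primary cultures.

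The promoters of Cdkn2a and Cdkn2b are shown because the inhibitor genes lie next to each other and differed by unlike amounts between the arrays, and because Cdkn2a has starts for both of its products but a single probe set. All sequences are from RefSeq, build GRCm38.p6, and cover the 250 bases before an annotated start, 5′ to 3′ on the gene's strand, with base -1 next to the start. Capitals mark CpG dinucleotides, the sites of DNA methylation. No methylation was measured here, and whether these windows bear on the unlike amounts was not tested. The first lies before the upstream start, that of the p19Arf first exon (chr4:89294620-89294869, minus strand), the second before the downstream start, that of the p16INK4a first exon (chr4:89282193-89282442, minus strand), and the third before Cdkn2b (chr4:89311033-89311282, minus strand).
Cdkn2a upstream start: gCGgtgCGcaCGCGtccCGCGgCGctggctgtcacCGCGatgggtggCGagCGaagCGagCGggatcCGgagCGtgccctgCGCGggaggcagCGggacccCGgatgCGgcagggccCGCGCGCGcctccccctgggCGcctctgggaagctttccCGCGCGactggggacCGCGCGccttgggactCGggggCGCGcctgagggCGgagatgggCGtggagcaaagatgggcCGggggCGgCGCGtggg
Cdkn2a downstream start: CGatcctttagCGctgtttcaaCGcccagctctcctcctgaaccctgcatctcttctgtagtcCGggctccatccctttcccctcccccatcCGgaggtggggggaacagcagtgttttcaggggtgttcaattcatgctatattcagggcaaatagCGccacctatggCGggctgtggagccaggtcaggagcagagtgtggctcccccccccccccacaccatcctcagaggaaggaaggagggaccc
Cdkn2b: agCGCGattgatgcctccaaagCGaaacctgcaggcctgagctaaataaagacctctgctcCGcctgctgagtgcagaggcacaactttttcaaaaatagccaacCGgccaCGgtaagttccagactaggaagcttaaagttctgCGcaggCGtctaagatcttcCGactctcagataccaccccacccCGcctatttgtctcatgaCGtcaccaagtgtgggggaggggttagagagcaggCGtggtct
The window of the upstream Cdkn2a start held 40 CpGs and 78.4% G and C, that of the downstream start 7 CpGs and 60.0%, and that of Cdkn2b 12 CpGs and 53.6%. The median over 32851 such windows of mouse genes was 6 CpGs and 52.4%. The upstream window also held 2 matches to the GC box GGGCGG (searched on both strands), at -48 to -43 and at -14 to -9, while the other windows of the locus held none. A GC box was found in 32.7% of all windows.

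For Cdkn1a and Rbl1 the windows are shown with the motif of the pathway that each gene is known to answer to, p53 for Cdkn1a and E2F for Rbl1. Capitals mark matches to the p53 half-site in the upstream Cdkn1a window (chr17:29090729-29090978, plus strand), the GC box in the downstream Cdkn1a window (chr17:29093519-29093768, plus strand), and the E2F motif TTTCGCGC or TTTGGCGC in the Rbl1 window (chr2:157204535-157204784, minus strand), each searched on both strands.
Cdkn1a upstream start: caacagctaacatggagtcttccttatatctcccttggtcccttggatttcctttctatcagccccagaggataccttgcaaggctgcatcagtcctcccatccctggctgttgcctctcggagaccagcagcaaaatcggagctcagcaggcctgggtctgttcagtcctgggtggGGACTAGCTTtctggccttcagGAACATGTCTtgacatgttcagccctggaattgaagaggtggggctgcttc
Cdkn1a downstream start: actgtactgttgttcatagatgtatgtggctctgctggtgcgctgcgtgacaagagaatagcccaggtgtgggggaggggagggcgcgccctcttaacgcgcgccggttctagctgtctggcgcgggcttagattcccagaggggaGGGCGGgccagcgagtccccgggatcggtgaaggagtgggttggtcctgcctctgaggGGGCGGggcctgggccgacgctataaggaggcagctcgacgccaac
Rbl1: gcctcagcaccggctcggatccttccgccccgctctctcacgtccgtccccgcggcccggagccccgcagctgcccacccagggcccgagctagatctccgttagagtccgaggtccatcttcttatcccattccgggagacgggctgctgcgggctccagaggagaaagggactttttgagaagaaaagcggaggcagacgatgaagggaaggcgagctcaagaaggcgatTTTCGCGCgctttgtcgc
The upstream Cdkn1a window held 2 exact matches to the p53 half-site, at -73 to -64 and at -51 to -42, and the downstream window held none. Of all windows 7.13% held one, among them the Cdkn2d window at -102 to -93, where it overlapped a GC box at -106 to -101. The E2F motif lay at -18 to -11 of the Rbl1 window and was found in 0.654% of all windows. Of the 11 windows of 8 members, the Rbl1 window alone held it. Only exact matches are marked. The stretch right after the -51 to -42 match of Cdkn1a departs from the half-site pattern at its first base alone and stays in lower case. A match is a run of letters and does not show that a factor was bound.

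Malat1 was read first as a check of the labels. Its brightest probe set gave 9.80 on the wildtype array and 4.53 on the knockout array, and 6 of its 7 probe sets were above the floor on the wildtype array alone. The floor is each array's median signal over 45037 probe sets, 5.39 (wildtype) and 5.44 (knockout) on the deposited scale, which was taken as log2. A probe set counts as measured at or above it, and 21610 probe sets were measured on both arrays. All 10 fibroblast markers listed (collagens, Vim, Fn1, Thy1, Prrx1, Twist2 and the PDGF receptors) were measured on both arrays. The X-linked RNA Xist was above the floor on the knockout array alone and 3 Y-linked genes on the wildtype array alone. The sex of the cells and genotype therefore cannot be told apart in any difference between the arrays, that of Cdkn2a included. All 18 hybridization spike-in probe sets gave less signal on the knockout array (median difference -0.23).

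Cdkn2a had the widest difference of the 9 genes. Its probe set 1450140_a_at read 8.45 on the wildtype array and 7.03 on the knockout array, both above the floor. The difference, knockout minus wildtype, was -1.42 on the log2 scale, so the knockout signal was 2.67-fold lower. Only 20 of the probe sets measured on both arrays had a lower difference, so it ranked 21 from the bottom of 21610. Scatter widens toward dim signals, so it was also set beside probe sets of like brightness, those whose mean signal lay within 0.5 of its own. Of these 4031 probe sets 0.198% had a lower difference, and their SD was 0.25. The sources used here do not say in which exons its probes lie, so p16INK4a and p19Arf, whose starts are shown above, cannot be told apart in this value. In RNA from a whole culture, fewer cells with the transcript and less transcript in each cell cannot be told apart either.

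The other INK4 genes differed by far less. Cdkn2b, which encodes p15INK4b and lies next to Cdkn2a on chromosome 4, read 11.15 on the wildtype and 11.00 on the knockout array, a difference of -0.15. Cdkn2c, which encodes p18INK4c, read 8.28 and 8.07, a difference of -0.21. Cdkn2d, which encodes p19INK4d, read 8.60 and 8.71, a difference of 0.11, and was the INK4 gene with the higher signal in the knockout. Of the probe sets of like brightness, 19.1% had a lower difference than Cdkn2b, 29.2% a lower one than Cdkn2c and 12.1% a higher one than Cdkn2d. Differences as wide were thus not rare among other probe sets of these arrays, whose spread is not that of replicates.

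**Figure D1:**
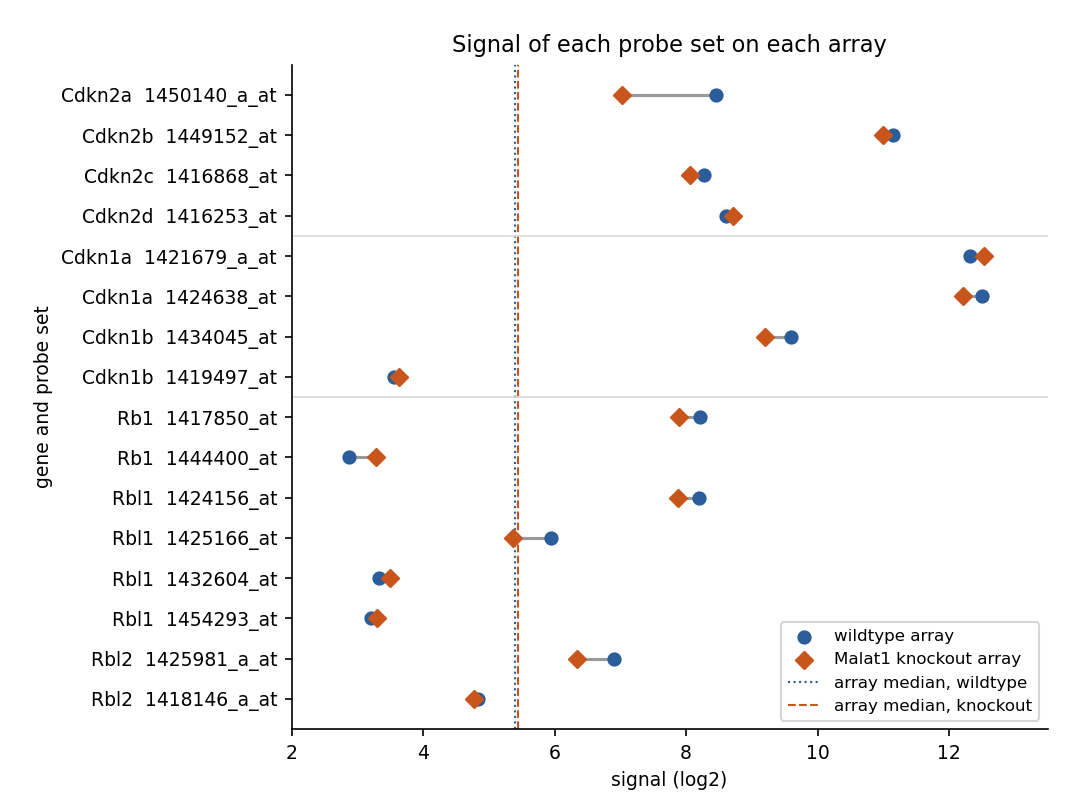
Log2 signal (x axis) of the 16 probe sets of 9 genes (rows) on the wildtype array (circles) and the Malat1 knockout array (diamonds), with each array's median as a vertical line; there is 1 array per genotype and so no error bar. The longest bar is that of Cdkn2a, from 8.45 to 7.03, and 5 probe sets lie left of both medians.

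Of the CIP/KIP inhibitors, Cdkn1a differed in opposite directions between its probe sets. Cdkn1a encodes p21, the inhibitor that p53 switches on after DNA damage. Its probe set 1421679_a_at read 12.32 on the wildtype and 12.53 on the knockout array, a difference of 0.21. Its probe set 1424638_at read 12.50 and 12.22, which is -0.28. At like brightness, 4.04% of 544 like probe sets had a higher difference than the first, and 3.37% of 563 a lower one than the second. The gap between the probe sets was 0.49, and 12.5% of the 4883 genes with several measured probe sets had a gap as wide. Opposite signs within a gene were common, at 42.3% of those genes. Cdkn1a has 2 annotated transcripts in RefSeq and the starts shown above, but the sources used here do not say which transcript either probe set reads.

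Cdkn1b encodes p27, the inhibitor that accumulates in resting cells and is destroyed through the ubiquitin ligase subunit Skp2 as cells enter S phase. Its brighter probe set, 1434045_at, read 9.60 on the wildtype and 9.20 on the knockout array, a difference of -0.40 or 1.32-fold. Of 2887 probe sets of like brightness 4.40% had a lower difference. The other Cdkn1b probe set read 3.56 and 3.64, below the floor on both arrays, and gives no fold.

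The 3 pocket protein probe sets measured on both arrays were lower on the knockout array, each by less than 1.5-fold. Rbl2 encodes p130, the pocket protein of resting cells, and its probe set 1425981_a_at read 6.90 on the wildtype and 6.34 on the knockout array, a difference of -0.56 or 1.48-fold. Rbl1 encodes p107, which is made as cells enter S phase, and its probe set 1424156_at read 8.20 and 7.87, a difference of -0.33. Rb1, the retinoblastoma protein itself, read 8.21 and 7.89 with probe set 1417850_at, a difference of -0.31. Among probe sets of like brightness, a lower difference was found for 5.38% in the case of Rbl2, 14.1% for Rbl1 and 15.2% for Rb1. A second Rbl1 probe set, 1425166_at, read 5.95 on the wildtype array and 5.37 on the knockout array, just under the floor, and was at least 1.43-fold lower. The remaining probe sets of the pocket proteins, 2 of Rbl1, 1 of Rb1 and 1 of Rbl2, were below the floor on both arrays. Together with the dim Cdkn1b probe set these 5 had signals from 2.88 to 4.84.

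As a group, 8 of the 10 probe sets measured on both arrays were lower on the knockout array and 2 were higher. Over all measured probe sets 61.4% were lower. With the median difference set to 0 that share is even by construction, and it was 48.1% after quantile normalization and 51.1% after loess centring, while the members stayed at 8 lower and 2 higher under each. The median difference of the members was -0.30, and -0.28 without Cdkn2a, against -0.06 over all measured probe sets. The members' median was -0.24, -0.20 and -0.21 under those scalings, where that of all probe sets was 0.00, 0.01 and -0.00. Only 1 of the 10, Cdkn2a, was at least 1.5-fold lower, against a background of 2.57%, and none was at least 1.5-fold higher, against 0.722%. The 2-fold mark was passed downward by Cdkn2a alone, against 0.292% of all measured probe sets, and upward by no member, against 0.0555%. Of the probe sets past 1.5-fold, 78.1% were lower as deposited, and 60.2%, 56.2% and 64.2% under the scalings in the same order. By family the medians were -0.18 for 4 INK4 probe sets, -0.28 for 3 CIP/KIP probe sets and -0.33 for 3 of the pocket proteins.

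**Figure D2:**
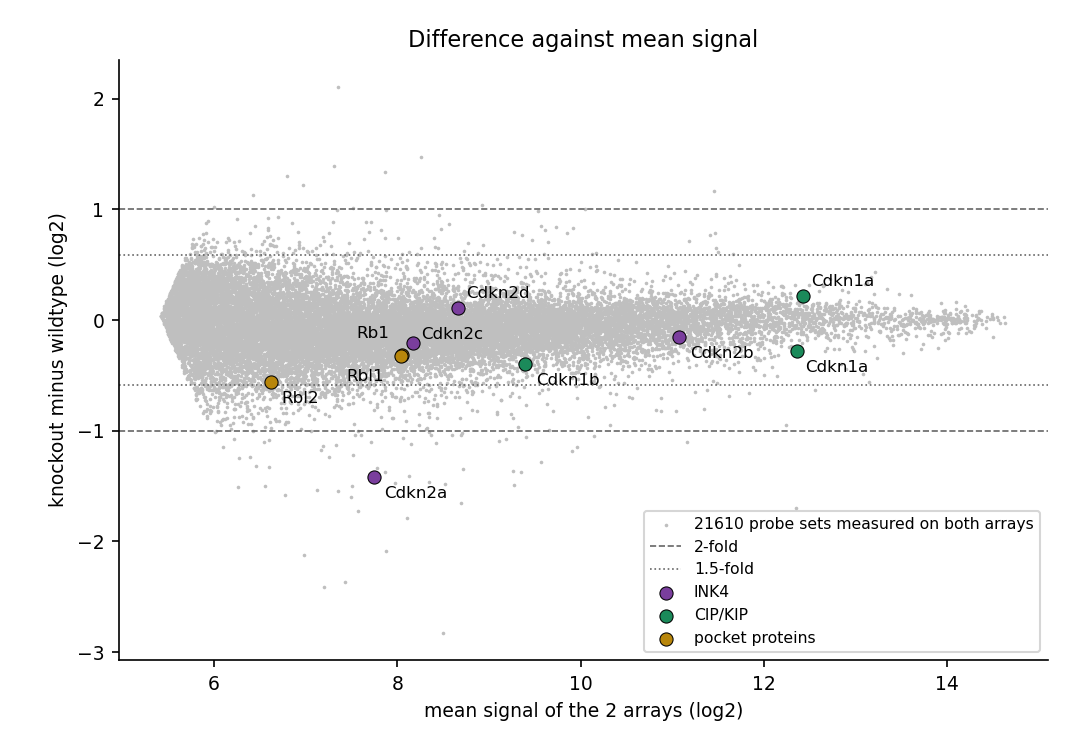
Difference, knockout minus wildtype (y axis, log2), against the mean signal of both arrays (x axis, log2) for 21610 probe sets measured on both arrays (grey) and the 10 of the cell cycle inhibitor genes (coloured by family), with lines at 1.5-fold and 2-fold. Cdkn2a, at -1.42, lies below the 2-fold line, and the other 9 lie between -0.56 and 0.21.

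The sign of each of the 10 differences was the same under 3 other scalings of the arrays and with 16 or 64 added to the linear values. None of these settings scaled the arrays to the spike-in probe sets. The spike-in median, -0.23, lay further below 0 than the deposited differences of Cdkn2b (-0.15) and Cdkn2c (-0.21). Cdkn2a ran from -1.35 to -1.08 over these 5 settings, past 2-fold in each. Rbl2 ran from -0.50 to -0.34, so it came no nearer to 1.5-fold. In at least 1 setting the sizes for Cdkn2b, Cdkn2c, Cdkn2d, Rb1, Rbl1 and Rbl2 were over 1.5 times away from the deposited ones. Cdkn2b ran from -0.15 to -0.09, Cdkn2c from -0.20 to -0.09 and Cdkn2d from 0.09 to 0.22. Rb1 ran from -0.30 to -0.20 and Rbl1 from -0.31 to -0.21. Cdkn1b moved less, from -0.39 to -0.32. Cdkn1a kept its opposite signs, at 0.21 to 0.28 for one probe set and -0.29 to -0.22 for the other.

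**Figure D3:**
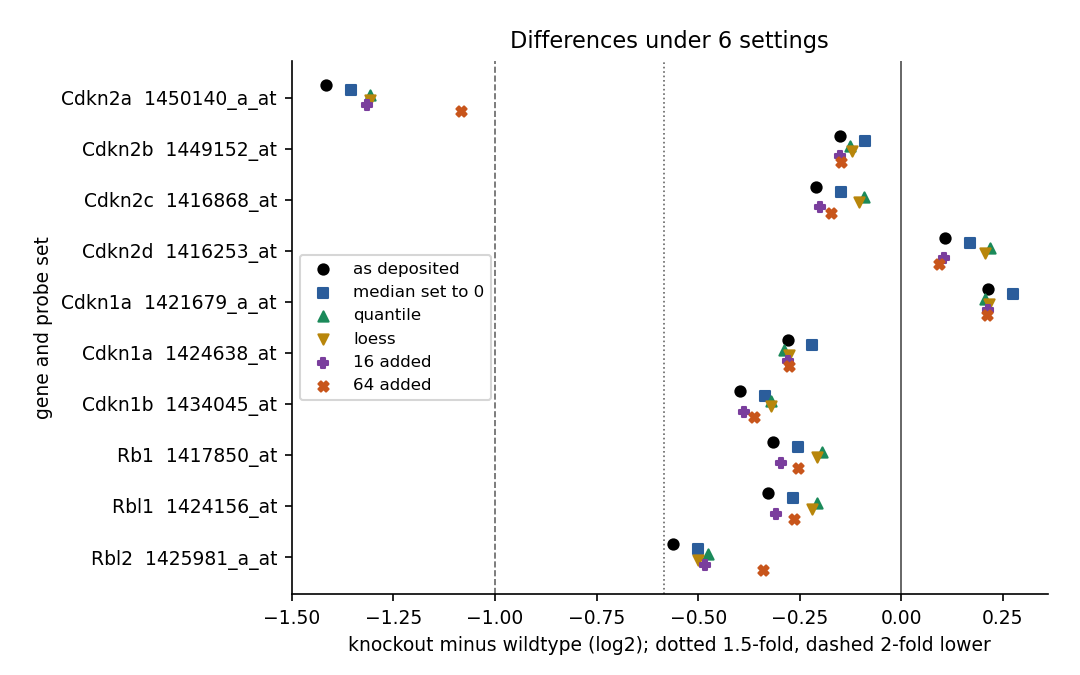
Difference, knockout minus wildtype (x axis, log2), of the 10 probe sets measured on both arrays (rows) as deposited and under 5 other settings (markers). Every marker of Cdkn2a lies left of the 2-fold line, and no probe set crosses 0.

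The genes around the Cdkn2a locus were compared with it. In RefSeq gene order Mtap, the methylthioadenosine phosphorylase, is the next coding gene on one side of Cdkn2a, and Cdkn2b, Dmrta1, Zfp352 and Elavl2 follow on the other. The brightest Mtap probe set read 11.07 on the wildtype and 11.33 on the knockout array, a difference of 0.27, and its other 3 differed by 0.12, 0.04 and -0.00. Elavl2, an RNA-binding protein best known from neurons, read 7.77 and 7.68, a difference of -0.09 that turned to 0.04 after quantile normalization and 0.02 after loess centring. The other measured Elavl2 probe sets differed by 0.05 and 0.19. Dmrta1 and both Zfp352 probe sets were below the floor on both arrays. On the Mtap side, the interferon gene Ifna1 lies beyond Ifne and read 4.66 and 5.46, above the floor by a narrow margin on the knockout array alone. Of the genes of this stretch measured on both arrays, Cdkn2a alone differed by 1.5-fold or more.

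Genes that act on the members or through them were taken from 9 lists, with each gene represented by its brightest probe set. Of the 11295 genes measured on both arrays 59.8% were lower on the knockout array, 1.61% at least 1.5-fold lower and 0.832% at least 1.5-fold higher, with a median of -0.05. The chromatin and transcription regulators of the Ink4a/Arf locus held 16 measured genes, 14 lower and 2 higher, with a median of -0.09 and none past 1.5-fold. After quantile normalization 9 of the 16 were lower, with a median of -0.02. Ets2, an activator of the p16INK4a promoter, read 9.35 on the wildtype and 8.83 on the knockout array, a difference of -0.52. The other measured Ets2 probe set differed by -0.17. Ets1, also on this list, read 10.03 and 10.01, a difference of -0.01. Its other measured probe sets differed by -0.06, -0.49 and -0.28. Id1, which opposes Ets factors there, read 9.92 and 10.41, a difference of 0.49. Whether these genes bear on the Cdkn2a signal was not tested. The histone demethylase Kdm6b differed by -0.32 and the transcription factor Twist1 by -0.27. Of the Polycomb genes that hold the locus silent, Bmi1 differed by -0.21, Suz12 by -0.22 and Ezh2 by -0.20, the lowest of them. The other measured ones, Cbx8, Rnf2, Kdm2b, Ring1, Cbx2 and Eed, ran from -0.09 to 0.01. Cbx7 was below the floor on both arrays.

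The kinases that the inhibitors act on were read with their cyclins. Of 12 measured G1 cyclins and CDKs, 7 were lower and 5 higher, with none past 1.5-fold and a median of -0.04, which became 0.02 with the median difference of all probe sets set to 0. Cdk2 differed by -0.27, Cdk6 by -0.23 (its other measured probe sets by 0.04 and -0.09) and the cyclin gene Ccne2 by -0.19. Ccnd1, cyclin D1, differed by 0.17 and its other measured probe sets by 0.09 and 0.02. The E2F and DP factors, the partners of the pocket proteins, held 9 measured genes, 7 lower and 2 higher, with a median of -0.08 that turned to 0.03 after quantile normalization and 0.02 after loess centring. E2f1, an activator of S phase genes, read 7.29 and 7.56, a difference of 0.27 (its other measured probe set 0.04). E2f4, the main partner of p130 in resting cells, read 6.18 and 6.44, a difference of 0.26. Tfdp2 differed by -0.19 (its other measured probe sets each by -0.05) and E2f3 by -0.12 (the other measured E2f3 probe set by 0.03). DREAM, a complex that includes a pocket protein, represses cell cycle genes in resting cells. The list of DREAM and MuvB partners also holds genes that act outside that complex, such as Mybl2. Of the 9 measured genes of this list 5 were lower and 4 higher, with a median of -0.09. That sign turned under quantile normalization (0.03) and loess centring (0.01). Lin54 differed by -0.37, Lin37 by -0.33, Mybl2 by -0.32 and the kinase Dyrk1a by -0.24.

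**Figure D4:**
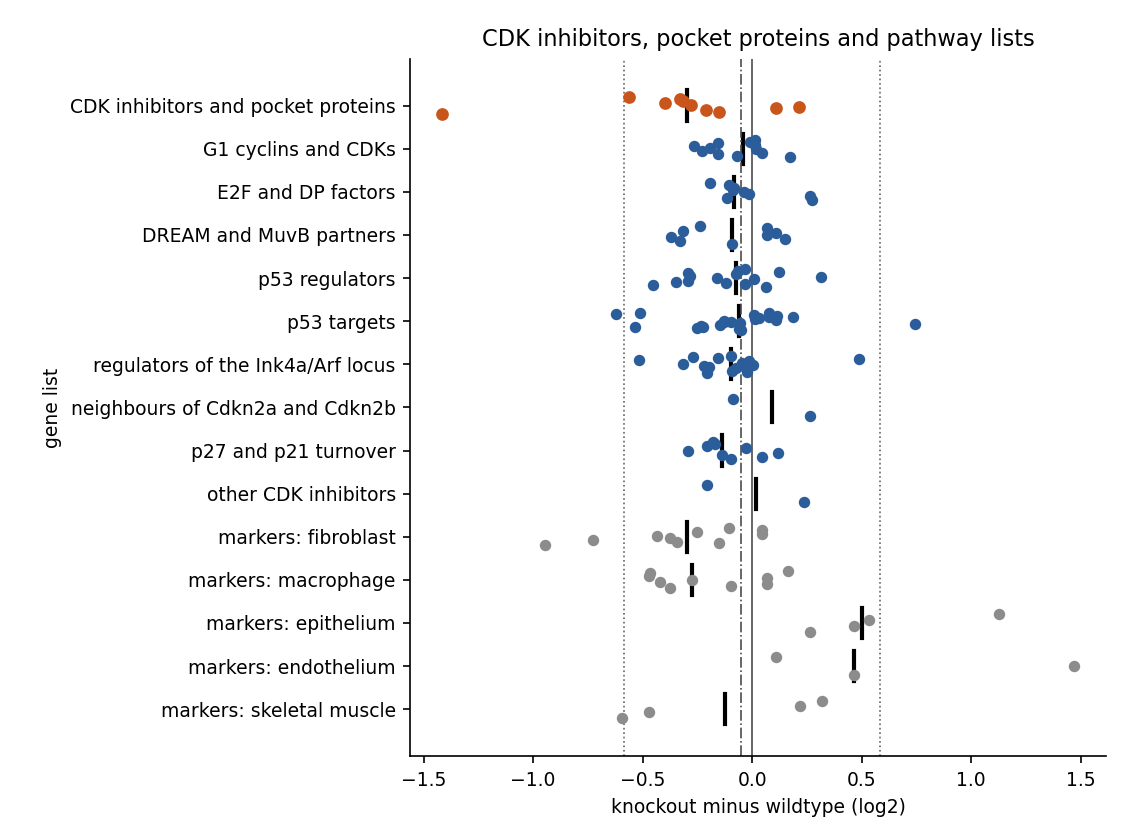
Difference, knockout minus wildtype (x axis, log2), of the 10 probe sets of the inhibitor and pocket protein genes (top row) and of the measured genes of 9 pathway lists and 5 marker lists (other rows), 1 point each, with the list's median as a black bar. Dotted lines mark 1.5-fold and the dash-dotted line the median of all measured genes, -0.05; Cdkn2a is the point at -1.42, and the list medians of the pathway rows run from -0.14 to 0.09.

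The p53 arm, into which p19Arf feeds, was read from regulators and targets. Of 15 measured p53 regulators 11 were lower and 4 higher, with a median of -0.07 and none past 1.5-fold. After quantile normalization 8 were lower and 7 higher, for a median of -0.01. The other scalings each gave 9 lower and 6 higher. Mdm4, an inhibitor of p53, differed by -0.45, although another measured Mdm4 probe set differed by 0.35. The checkpoint kinase Chek1 differed by -0.35, the coactivator Crebbp by -0.29 and the kinase Hipk2 by 0.31. Mdm2, the ligase that p19Arf binds, read 10.55 and 10.61, a difference of 0.07. Of 22 measured p53 targets 13 were lower and 9 higher, with a median of -0.06 that became 0.00 with the median difference set to 0 and after quantile normalization. One target was past 1.5-fold in each direction. Perp, a desmosome protein that is also made by epithelia, was 1.67-fold higher, at 7.63 and 8.37. Sfn, the epithelial 14-3-3 sigma, was 1.54-fold lower, a difference of -0.62. The Sfn difference was -0.56 to -0.51 under the other scalings and so under 1.5-fold. Gadd45a, a growth arrest gene, differed by -0.53 and Apaf1, a caspase activator, by -0.51 (its other measured probe set by -0.28). Ccng1, among the bright p53 targets, differed by -0.05.

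The list drawn up for the destruction of p27 and p21 includes Fbxw7, which is not the subunit that recognises either protein. The list held 9 measured genes, 7 lower and 2 higher, with a median of -0.14 and none past 1.5-fold. The median was -0.07 with the median difference of all probe sets set to 0, -0.04 after quantile normalization and -0.06 after loess centring, each with 6 lower and 3 higher. Rbx1 differed by -0.29, Ddb1 by -0.20, Fbxw7 by -0.18 and Dtl by -0.17, and Skp2, the subunit that recognises p27, read 8.99 and 8.89, a difference of -0.10. The CIP/KIP gene Cdkn1c, an imprinted gene that encodes p57, differed by 0.24, and the phosphatase gene Cdkn3 by -0.20.

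Markers of other cells differed between the arrays beside these results, in both directions. Their summed linear signals are given over all genes of a list, those below the floor included. Linear sums are weighted toward the brightest genes, so they do not show that a list moved as a whole. The brightest macrophage marker on both arrays was Lyz2 (11.20 on the wildtype and 10.74 on the knockout array). For endothelium it was Emcn, and for skeletal muscle Acta1 (11.40 and 11.62). Of 10 macrophage markers 9 were measured, 6 lower and 3 higher in the knockout (median -0.28), and the sum over the 10 was 4150 on the wildtype and 3430 on the knockout array. Aif1 differed by -0.47, Lyz2 by -0.46, Ptprc by -0.42, Cd68 by -0.37, Tyrobp by -0.28 and Adgre1 by -0.10. The 3 higher ones were Cd14 (0.16), Csf1r (0.07) and Fcer1g (0.07). The other measured Csf1r probe sets differed by -0.21 and 0.15. Aif1 (5.97 and 5.50) and Ptprc (6.18 and 5.76) were dim. Of 8 epithelial markers 4 were measured on both arrays and these 4 were higher (median 0.50), Krt8 and Krt5 were above the floor on the knockout array alone, and Cdh1 and Krt14 were below it on both. Cldn4, a tight junction protein, was 2.18-fold higher, while Cldn3 differed by 0.54, Krt18 by 0.47 and Epcam by 0.27. The other Cldn3 probe set measured on both arrays differed by 0.10. The sum over the 8 epithelial markers was 613 and 858. Of 7 endothelial markers 3 were measured and higher (median 0.47), while Pecam1, Cdh5, Tek and Tie1 did not reach the floor on either array. Emcn, a surface sialomucin, was 2.77-fold higher, Kdr differed by 0.47 and Egfl7 by 0.11. The other measured Egfl7 probe sets differed by -0.25 and -0.02. The sum over the 7 endothelial markers was 468 and 834.

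The 10 fibroblast markers had a median of -0.30, with 8 lower, and a sum of 90500 and 80100. The brightest Col1a1 probe set was 1.93-fold lower and its other probe set 1.26-fold lower. Pdgfra was 1.66-fold lower, Thy1 differed by -0.43 and Pdgfrb by -0.37. Skeletal muscle markers were measured for 4 of 7, with 2 lower and 2 higher, and the sum over the 7 was 3050 and 3450. Mylpf was 1.51-fold lower and Myl1 differed by -0.47, while Acta1 differed by 0.22 and Ckm by 0.32. Myod1, Myog and Tnnt3 were below the floor on both arrays. The part of cell composition in the Cdkn2a difference was not tested.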

How the data were processed

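The labels' genotype put 1 array in each group. The deposited table holds a single value for every probe set on each array, taken here as log2 signals because both columns run from about 2.09 to 14.7. The sources used here do not name the authors' background correction, summarization, normalization or software. Per the labels' protocols, 100 ng of total RNA went into a 3′ IVT labelling with biotin.

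Probe sets were named through GEO's platform annotation, using those with 1 symbol. Trp53 and 4 names of the gene lists matched none and were not analysed here. The floor, differences, medians and counts were computed in Python 3.11.15 with pandas 2.3.3, and loess centring used statsmodels 0.14.6 with a span of 0.3. A gene of a list was represented by its probe set with the highest mean. Folds of 1.5 and 2 took the place of a test. Members, lists and rules were chosen with earlier results of these data known. Named genes are every probe set of the members, the neighbours, and from each list the 4 genes with the largest difference and any past 1.5-fold. Bmi1, Suz12, Ezh2 and the other Polycomb genes, and Ets1, Mdm2, Ccng1 and Skp2, were added after their values were seen, for their roles. The remaining measured macrophage markers were also added after their values were seen, so that both directions are shown. Promoter windows were read from a RefSeq table, which held 8 of the 9 genes.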

Additional observations from a re-analysis of the deposited data

How the results depend on the processing

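No paired analysis was possible because a single array stands for each genotype, and no array could be left out. The settings tried were the median difference set to 0, quantile normalization, loess centring, no floor, floors at the 75th and 40th percentiles, 16 or 64 added to linear values, no _x_at or _s_at probe sets, and for the lists other ways to stand 1 value for a gene. With the floor at the 75th percentile (7.75 for the wildtype and 7.62 for the knockout) the count of members at least 1.5-fold lower became 0 and that at least 2-fold lower became 0, because the knockout signal of Cdkn2a, 7.03, then lies under the floor, and Cdkn2a is at least 1.77-fold lower. The median of the other CDK inhibitors moved to 0.24 under that floor, which leaves Cdkn1c alone. With 64 added to linear values the Cdkn2a difference was -1.08 and that of Rbl2 -0.34, since the offset shrinks the differences of dim probe sets. The members' median ran from -0.31 to -0.18 over 9 settings, the last without a floor, where 16 probe sets entered. A value was held to have moved past a change of 0.20, the pooled SD of differences between probe sets of one gene. The signs of the list medians turned in 3 of 11 settings for the DREAM and MuvB partners, 2 for the E2F and DP factors, 2 for the p53 targets, 1 for the G1 cyclins and CDKs and 1 for the neighbours of Cdkn2a. The number of arrays, 1 per genotype, limits the precision of every value.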

Other observations

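Probe sets of one gene disagreed in sign for other genes of the pathway as they did for Cdkn1a. Of 54 genes on the pathway lists with several probe sets measured on both arrays, 25 had differences of both signs, which is 46.3%, against 42.3% of all genes with several. The widest gap was at Mdm4, from -0.45 to 0.35. The cyclin H gene Ccnh, a partner of the CDK-activating kinase, ran from -0.52 to 0.10, and E2f5, a repressive E2F, from -0.03 to 0.56. The p27 ligase subunit gene Skp2 ran from -0.30 to 0.22 over 5 probe sets. These genes were singled out after their values were seen, and the cause was not tested.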
